A study of Mus musculus with 8 samples.

Results

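The 9 genes described here handle lipid in microglia: Lpl, Lipa, Plin2, Fabp5, Soat1, Cd36, Dgat1, Mgll and Pnpla2. They were taken by symbol from a list of open-chromatin regions with H3K27ac values. The members are the 103 regions, of 129304 in the list, that are assigned to 1 of these 9 genes, of 18707 genes in all. H3K27ac, an acetyl mark on histone H3, lies on active promoters and enhancers. ChIP-seq, which sequences the DNA pulled down with an antibody to the mark, was run on nuclei of WT mice and of mice that lack the gene Grn (GrnKO), which encodes the lysosomal and secreted protein progranulin. All mice were C57BL/6, aged 2 years, and no other treatment is named. The labels describe the allele no further than GrnKO. Nuclei from brain were sorted as PU.1+, OLIG2- and NEUN-, a gate for myeloid nuclei, and each replicate pooled nuclei of 2 mice. Each genotype had 2 H3K27ac libraries and 2 input libraries, which are chromatin sequenced without the antibody.

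Fatty acids reach a cell when lipoprotein lipase, made from Lpl, frees them from lipoproteins, and when surface receptors such as Cd36 bind them. Inside the cell, fatty acid binding proteins carry them, and lysosomal acid lipase, made from Lipa, frees cholesterol and fatty acids from lipid taken up whole. The enzymes of Soat1 and Dgat1 turn the surplus into cholesteryl esters and triglycerides, which are kept in droplets coated by perilipin 2, made from Plin2. The lipases of Pnpla2 and Mgll break droplet triglyceride down again, at its first and last step. In microglia, Lpl and Fabp5 are among the genes known from states around plaques and damage, and droplets build up in aged brain.

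Depth ran from 15491642.5 to 20030832 tags over the 4 H3K27ac libraries, where a tag is the table's unit of aligned reads, at 2 read ends per tag. Values below are scaled tags: tags per 10000000 in the library, divided by a trimmed mean of M-values (TMM) factor that aligns the bulk of the regions between libraries. The WT replicate 1 library stood apart, with 49.4% of its tags in the listed regions and a TMM factor of 0.825, against 63.3% to 65.7% and 1.04 to 1.08 in the other 3. The Grn promoter region held 356.7 and 300.1 scaled tags in WT and 0 in both GrnKO libraries, where 3 tags would be 1.5 to 1.83 before TMM. Among promoter regions of cell type markers, the 8 microglial genes summed to 7871 and 9153 scaled tags in WT and 6635 and 6992 in GrnKO, and no lymphocyte, neuronal or astrocyte marker exceeded 11.9 in any library. The 3 of 5 border macrophage markers with a promoter region summed to 265 to 342 over the 4 libraries, and no monocyte or neutrophil marker had one. Among endothelial markers, Flt1 and Kdr, the only 2 of 5 with a promoter region, summed to 173 and 190 in WT and 350 and 382 in GrnKO. In the oligodendrocyte list, Mbp and Mog carried nearly all of 66.3 to 107 scaled tags, while Olig1 and Olig2 reached at most 6.26. Mog held 54.0 and 47.7 in WT and 27.4 and 25.1 in GrnKO, without overlap. The microglial and endothelial sums and the Mog values thus each moved with genotype, while Mbp and the oligodendrocyte sum overlapped. What part these cell types have in the members' values was not tested.

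Of the 9 genes, 5 carried more H3K27ac in GrnKO when all their regions were summed. They were Fabp5, a carrier of fatty acids, Plin2, the droplet coat, Lipa, the lysosomal lipase, Soat1, which esterifies cholesterol, and Mgll, which cleaves monoglycerides, and their sums were 1.82-fold to 2.58-fold those of WT. The sum of Lpl fell to 0.599 of WT. Pnpla2, Dgat1 and Cd36 did not pass the test, which was limma on log2(scaled tags + 1) with Benjamini-Hochberg adjustment over 15380 genes and a threshold of 0.05. Over all of these genes 8.59% were called higher and 5.88% lower. Their medians were a log2 change of -0.046 over all genes and of 0.87 over the 9. Under the authors' scaling alone, the same 5 genes were called higher and Lpl was not called, where 10.6% of all genes were higher and 1.08% lower. The median of all genes then stood at 0.18. Since whole sorted populations were measured, fewer nuclei with a mark and less mark per nucleus cannot be told apart. Both GrnKO sums lay above both WT sums at the 5 genes, as at 25.4% of all genes, and below them at Lpl and Cd36, as at 29.4%.

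**Figure D1:**
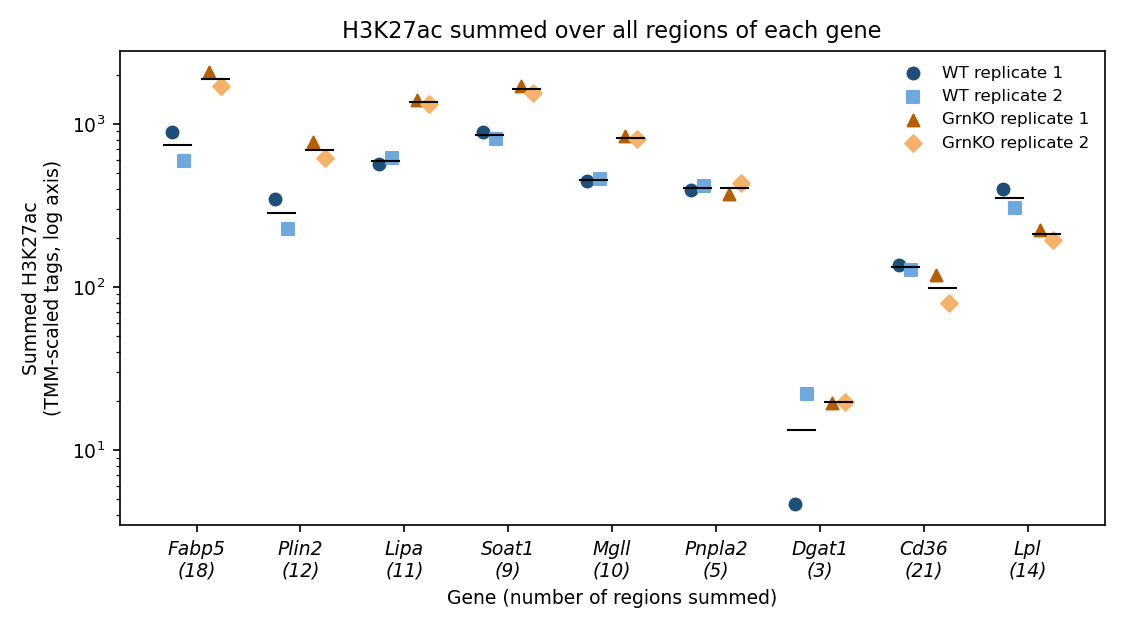
H3K27ac summed over all regions of each of the 9 genes (scaled tags after TMM, log axis), with 1 point per library, 2 WT and 2 GrnKO, and a bar at each genotype's mean. The GrnKO points lie above the WT points at Fabp5, Plin2, Lipa, Soat1 and Mgll and below them at Cd36 and Lpl.

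Region by region, the same genes led. Of the 103 regions, 71 held enough tags to be tested, at a minimum of 10, and limma called 33 higher and 2 lower in GrnKO. In the table as a whole, 6.8% of 80728 tested regions were called higher and 2.92% lower. With the authors' scaling alone, the members' counts were 34 and 1, against 8.15% and 0.412% of all regions. The median log2 change was 0.71 over the members' tested regions and -0.0020 over all tested regions. Of the 33 higher regions, 30 passed the filter through both genotypes and 3 through GrnKO alone, so that those 3 had to be high in GrnKO to be tested. They are 1 region of Fabp5, 8.0 kb downstream of its start site, and 2 of Plin2, 19.5 and 20.4 kb upstream. The 103 regions make 74 separate stretches, because neighbouring windows of 800 bp overlap and share reads. Both GrnKO libraries were above both WT libraries in 44 of the tested regions and below in 12, against 27% and 25.6% of all tested regions. Leaving out GrnKO replicate 1 reduced the 33 higher regions to 22, and leaving out GrnKO replicate 2 to 24. The 2 lower regions became 0 without GrnKO replicate 1, 1 without GrnKO replicate 2 and 4 without WT replicate 2.

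**Figure D2:**
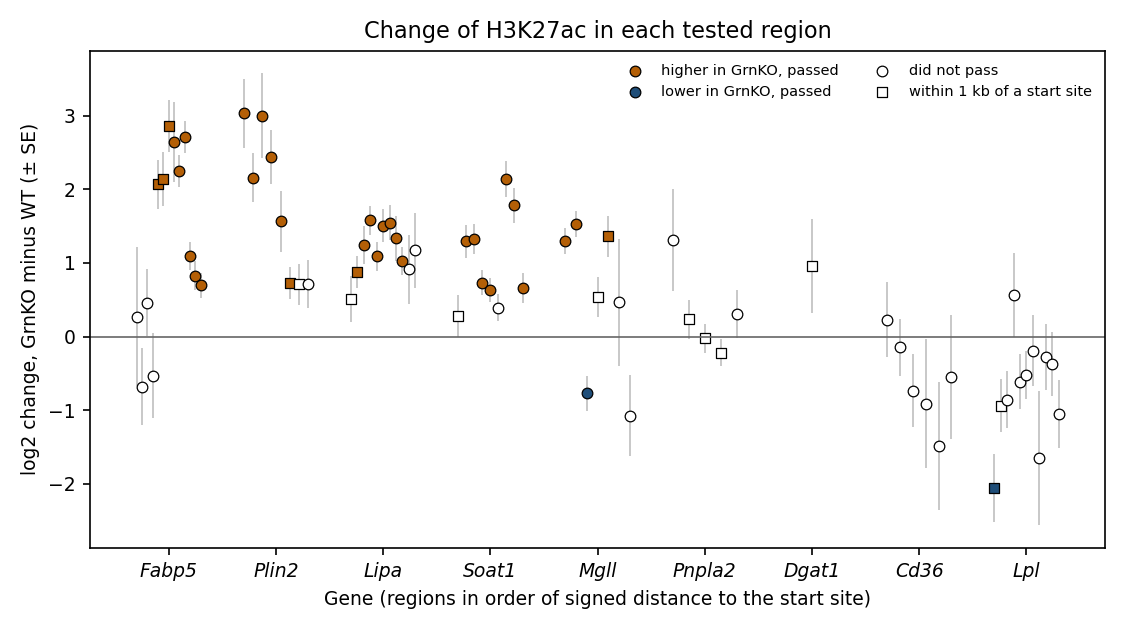
Change of H3K27ac in each of the 71 tested regions (log2, GrnKO minus WT, with its standard error), grouped by gene and ordered by position along it. Filled points passed the test, 33 of them higher and 2 lower, and squares mark regions within 1 kb of a start site. The points of Fabp5, Plin2, Lipa and Soat1 lie mostly above 0, and those of Lpl mostly below.

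Higher regions were found both near to and away from the start sites. Over 1 kb from a start site, 27 of 55 tested members' regions were higher and 1 was lower, where 7.99% and 3.4% of all such regions were. Within 1 kb, 6 of 16 were higher and 1 was lower, where 3.57% and 1.61% of all such regions were.

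Promoter sequences are shown for the 4 genes with higher sums that the promoter table holds, for reference beside the values of their start-site regions below. Each runs over the 250 bases before a RefSeq start site (GRCm38.p6, the same build as mm10), read along the gene, with capitals for the E-box CACGTG, a core motif of the lysosomal gene regulator TFEB and its relatives.
Lipa, chr19:34527475-34527724, minus strand: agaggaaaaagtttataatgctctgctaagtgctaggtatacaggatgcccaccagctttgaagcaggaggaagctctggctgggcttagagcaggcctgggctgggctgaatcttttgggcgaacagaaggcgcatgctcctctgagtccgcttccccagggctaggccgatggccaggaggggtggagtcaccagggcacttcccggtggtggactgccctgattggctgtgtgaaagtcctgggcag
Soat1, chr1:156474329-156474578, minus strand: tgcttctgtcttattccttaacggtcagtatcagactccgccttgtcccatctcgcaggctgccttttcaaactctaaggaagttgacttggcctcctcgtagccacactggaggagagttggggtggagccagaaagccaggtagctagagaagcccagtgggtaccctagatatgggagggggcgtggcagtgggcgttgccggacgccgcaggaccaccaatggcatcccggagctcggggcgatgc
Plin2, chr4:86670060-86670309, minus strand: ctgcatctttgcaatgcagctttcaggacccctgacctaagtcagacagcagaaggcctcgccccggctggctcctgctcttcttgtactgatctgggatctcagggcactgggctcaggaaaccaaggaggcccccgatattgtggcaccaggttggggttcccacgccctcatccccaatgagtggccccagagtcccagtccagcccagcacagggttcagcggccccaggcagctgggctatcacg
Mgll, chr6:88724162-88724411, plus strand: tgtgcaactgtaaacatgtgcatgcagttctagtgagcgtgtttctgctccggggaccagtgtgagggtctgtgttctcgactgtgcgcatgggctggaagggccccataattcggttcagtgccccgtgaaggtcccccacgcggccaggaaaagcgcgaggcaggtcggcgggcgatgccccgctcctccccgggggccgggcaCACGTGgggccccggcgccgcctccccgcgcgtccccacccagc
The table of promoters matched 6 of the 9 genes, with 7 start sites, and Lpl, Fabp5 and Dgat1 were not matched. The E-box stood in 1 of the 7, that of Mgll, from base 44 to base 39 before the start site, and in 6.02% of all 32851 promoters of this length. None of the 7 held, on either strand, the CLEAR core, a longer palindrome that contains the E-box (0.24% of all promoters), the AP-1 site TGACTCA, which reads TGAGTCA on the other strand (4.46%), or the PU.1 core GAGGAAGT (2.44%). A match is a run of letters, and the windows say nothing about sites elsewhere. The 7 promoters ranged from 43.2% G and C at Cd36 to 74.8% at the other Mgll start site, with Pnpla2 at 63.2% and the 4 shown at 58.0% to 68.0%, against a median of 52.4% over all promoters.

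Lpl encodes the secreted lipase that opens lipoprotein triglyceride to uptake. Its 14 regions summed to 400.8 and 306.4 scaled tags in WT and 225 and 195 in GrnKO. Both GrnKO libraries lay below both WT libraries, with a log2 change of -0.74 (SE 0.18, limma adjusted p = 0.0141). The steepest fall was at the start site. At the promoter region (chr8:68880253-68881053), WT held 47.7 and 44.8 scaled tags and GrnKO 6.51 and 16.1. The groups did not overlap, and this was the only 1 of 11 tested Lpl regions to pass (log2 change -2.06, SE 0.46, limma adjusted p = 0.00780). By unadjusted p under 0.05, 4 Lpl regions were lower and 0 higher, and the share of all regions at that threshold was not taken. edgeR and DESeq2 each called 1 lower and 0 higher. Over all 80728 tested regions they called 6925 and 7612 in either direction. In the first intron, the next region (chr8:68880898-68881698), named after its values were seen, held 39.5 and 42.4 scaled tags in WT and 21.5 and 20.3 in GrnKO, and did not pass (adjusted p = 0.119). The region with the most H3K27ac lay 46.2 kb downstream of the start site (chr8:68926316-68927116), with 71.2 and 42.7 in WT and 37.1 and 39.2 in GrnKO. It was lower in both GrnKO libraries and did not pass (log2 change -0.52, adjusted p = 0.349). Of the 11 regions, 7 had both GrnKO libraries below both WT libraries, 1 of them tested through WT alone, and 1 had them above.

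The call for the Lpl sum rested on several choices. With the authors' scaling alone, without TMM, the log2 change was -0.51 (limma adjusted p = 0.188), without GrnKO replicate 2 it was -0.62 (adjusted p = 0.118), and over the 12 regions beyond 1 kb from the start site it was -0.57 (adjusted p = 0.0909). Among 10 alternatives, the promoter region lost its call only without GrnKO replicate 1 (log2 change -1.44, adjusted p = 0.139).

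Set against the other 8 genes, Lpl lost most of its share. Lpl took 9.85% and 8.56% of the H3K27ac of all 9 genes in WT and 2.99% and 2.89% in GrnKO (9.20% ± 0.915 and 2.94% ± 0.0675, SD, n = 2). The ranges did not overlap. The other 8 genes summed to 3668 and 3275 scaled tags in WT and 7305 and 6540 in GrnKO. On the log2 scale, the ratio of Lpl to the rest changed by -1.74, a value given with no test because Lpl was singled out in advance with results known. This ratio does not depend on the scaling of the libraries, since both terms come from the same library.

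Cd36 encodes a scavenger receptor that takes up fatty acids and oxidised lipoproteins. Its 21 regions summed to 136.9 and 127.3 scaled tags in WT and 118 and 80.1 in GrnKO. Both GrnKO sums were below both WT sums, but the log2 change of -0.44 (SE 0.25) did not pass (limma adjusted p = 0.281). Summed over all 21 regions, its H3K27ac was at the level of 3 of the 4 inputs. By the authors' scaling, which input and H3K27ac libraries share, the regions summed to 86.6 to 131.8 in the H3K27ac libraries and to 0, 91.4, 161.6 and 140.8 in the inputs. Only 6 regions were tested, with 0 calls by limma, edgeR or DESeq2 and 0 at an unadjusted p under 0.05. The region with the most H3K27ac (chr5:17854276-17855076, in an intron) held 26.6 and 39.3 scaled tags in WT and 37.3 and 22.6 in GrnKO, so the groups overlapped. The smallest p was at another intronic region (chr5:17879661-17880461), with 8.99 and 8.12 in WT and 2.26 and 2.54 in GrnKO (log2 change -1.49). That region did not pass and was tested through WT alone, so its p-values are not given. The region nearest a start site (chr5:17849425-17850225) was too low to be tested.

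Fabp5 encodes a cytosolic carrier of fatty acids. Its 18 regions summed to 890.5 and 596.1 scaled tags in WT and 2070.5 and 1708 in GrnKO. Both GrnKO sums lay far above both WT sums, and the fold of 2.58 was the highest of the 9 genes (log2 change 1.37, SE 0.16, limma adjusted p = 9.96e-05). Of 13 tested regions, 9 were higher, 1 of them tested only through GrnKO, and these ran from 0.6 kb upstream of the start site to 13.4 kb downstream. At the promoter (chr3:10012129-10012929), WT held 52.0 and 17.8 scaled tags and GrnKO 159 and 120.4, without overlap (log2 change 2.14, adjusted p = 0.000909). The intronic region next to it (chr3:10012805-10013605) held 30.1 and 11.8 in WT and 140.6 and 145.8 in GrnKO (log2 change 2.85, adjusted p = 5.79e-05). The GrnKO libraries were close to each other there, and the WT libraries were not. Leaving out WT replicate 1 moved these log2 changes to 2.90 and 3.51, and leaving out WT replicate 2 to 1.42 and 2.23. The smallest p of all members' regions was 11.2 kb downstream of the start site (chr3:10023349-10024149), where WT held 45.8 and 37.5 and GrnKO 310.9 and 245 scaled tags (log2 change 2.71, SE 0.22, adjusted p = 1.36e-06). A neighbour 10.1 kb downstream (chr3:10022239-10023039) rose by 2.25. The region with the most H3K27ac (chr3:10024994-10025794, 12.8 kb downstream) held 194 and 129.9 in WT and 377 and 305 in GrnKO, a smaller log2 change of 1.09 from a higher WT level. The other regions that passed rose by 2.07 at 0.6 kb upstream, 0.83 at 13.1 kb downstream and 0.69 at 13.4 kb, and the last pair did not pass without GrnKO replicate 1 (adjusted p of 0.199 and 0.377). The region 8.0 kb downstream, tested through GrnKO alone, held 7.04 and 3.14 in WT and 34.5 and 35.5 in GrnKO, and its p-values are not given. All 4 tested regions between 38.0 and 70.9 kb upstream were low, at 1.83 to 28.0 scaled tags, and did not pass.

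**Figure D3:**
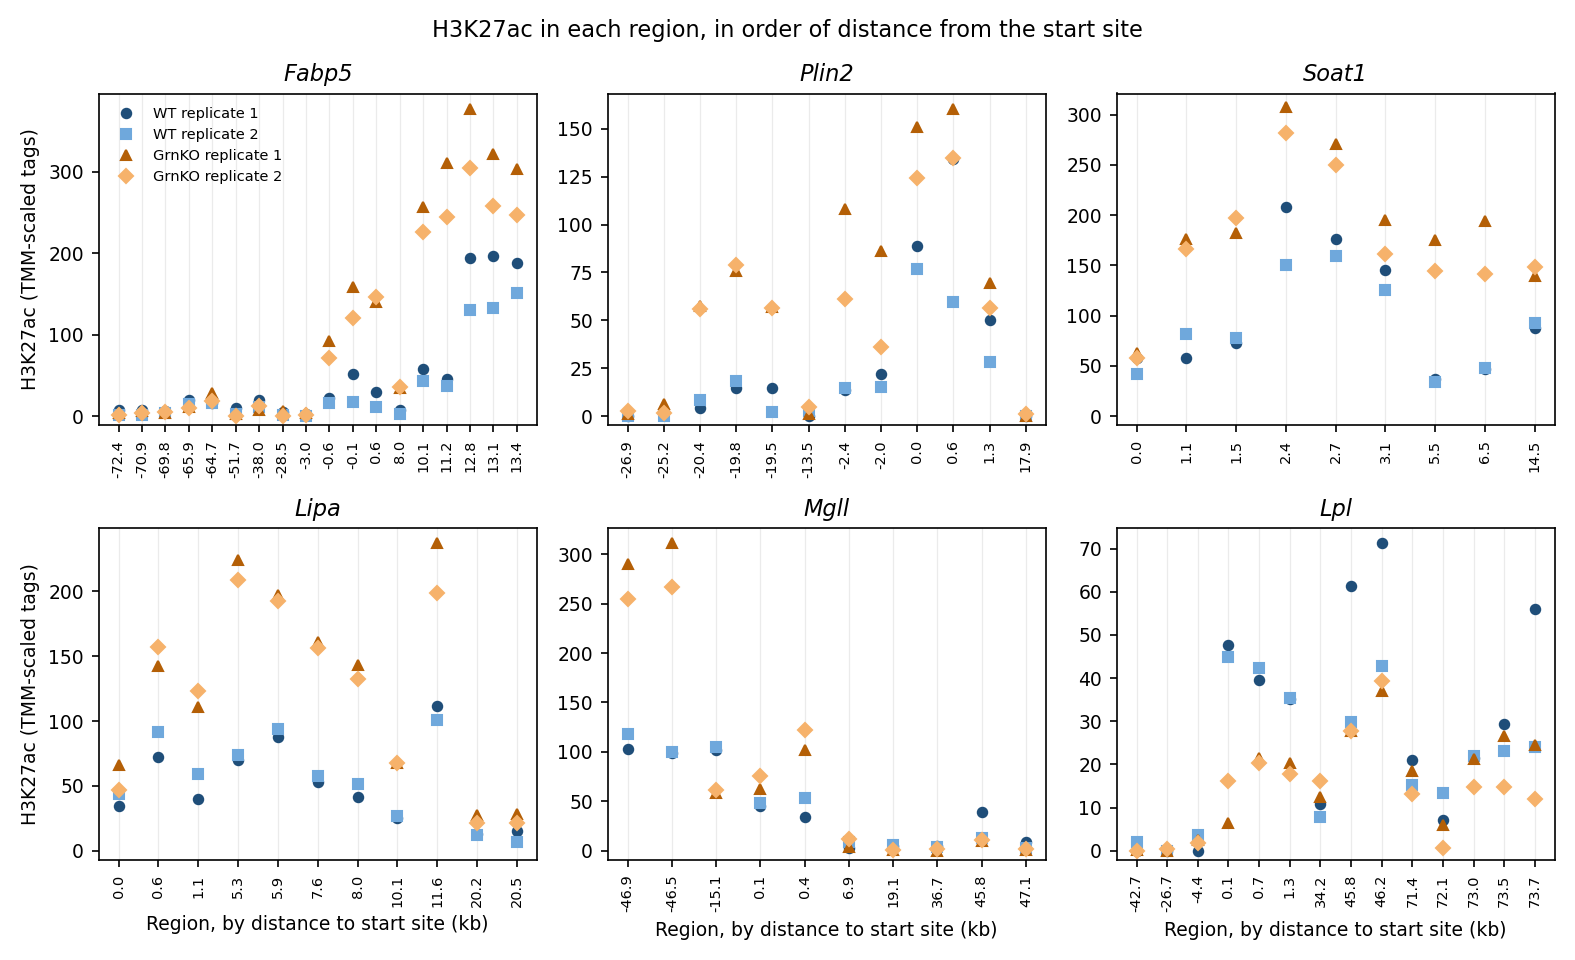
H3K27ac in every region of Fabp5, Plin2, Soat1, Lipa, Mgll and Lpl (scaled tags after TMM), with regions in order of their signed distance from the start site in kb and 1 point per library. GrnKO points separate upward at Fabp5 10.1 and 11.2 kb downstream, at Plin2 near 20 kb upstream, at Soat1 5.5 and 6.5 kb downstream and at Mgll 46.5 and 46.9 kb upstream, and downward at the Lpl start site.

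Lipa encodes the acid lipase of the lysosome, which hydrolyses cholesteryl esters and triglycerides. Its 11 regions summed to 565.5 and 618.6 scaled tags in WT and 1405.5 and 1327.5 in GrnKO. The 2 libraries of each genotype were close, and the groups were far apart (2.31-fold, log2 change 1.21, SE 0.11, limma adjusted p = 1.8e-05). Every one of the 11 regions had both GrnKO libraries above both WT libraries, and 8 passed. The smallest p was in an intron 5.3 kb from the start site (chr19:34521751-34522551), with 70.0 and 73.9 in WT and 224.3 and 209 in GrnKO (log2 change 1.58, SE 0.20, adjusted p = 6.47e-05). The region with the most H3K27ac (chr19:34515465-34516265, 11.6 kb into the gene) held 111.8 and 100.8 in WT and 237.3 and 198.6 in GrnKO (log2 change 1.02), and passed except without GrnKO replicate 1 (adjusted p = 0.0917). Between and around them, regions 1.1, 5.9, 7.6, 8.0 and 10.1 kb into the gene rose by 1.24, 1.09, 1.51, 1.55 and 1.33. The one at 10.1 kb did not pass with either GrnKO library left out, and the one at 1.1 kb not without GrnKO replicate 2 (adjusted p up to 0.158). At the start site itself (chr19:34527107-34527907), which covers the promoter printed above, WT held 34.8 and 43.5 and GrnKO 66.2 and 47.1. The groups did not overlap there, and the change did not pass (log2 change 0.51, adjusted p = 0.343). The next region, 0.6 kb into the gene, did (log2 change 0.87, adjusted p = 0.0144), though not with either GrnKO library left out.

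Soat1 encodes the enzyme that esterifies cholesterol for storage. Its 9 regions summed to 890.5 and 811.1 scaled tags in WT and 1705 and 1549 in GrnKO, with no overlap (1.91-fold, log2 change 0.93, SE 0.11, limma adjusted p = 8.2e-05). Of the 9, 7 passed, all of them in introns. The changes within the gene were uneven. At 5.5 kb from the start site (chr1:156468399-156469199), WT held 37.2 and 33.5 scaled tags and GrnKO 175.4 and 144.4 (log2 change 2.14, SE 0.25, adjusted p = 3.19e-05), and at 6.5 kb (chr1:156467432-156468232) the log2 change was 1.78. Regions 1.1 and 1.5 kb into the gene rose by 1.30 and 1.33, and regions 2.7 and 14.5 kb into it by 0.63 and 0.66. Neither of the last pair passed with either GrnKO library left out, and the one at 14.5 kb passed in 5 of 10 alternatives. The region with the most H3K27ac, 2.4 kb from the start site (chr1:156471542-156472342), held 208 and 150.1 in WT and 307.5 and 282.1 in GrnKO (log2 change 0.73, adjusted p = 0.0119), and its call was lost without GrnKO replicate 1 (adjusted p = 0.171) or replicate 2. The promoter region (chr1:156473922-156474722) held 57.9 and 42.2 in WT and 62.8 and 57.4 in GrnKO. WT replicate 1 lay level with the lower GrnKO library there, and no change was called (log2 change 0.28, adjusted p = 0.617).

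Dgat1 encodes an enzyme of the last step of triglyceride synthesis. Its 3 regions summed to 4.69 and 22 scaled tags in WT and 19.5 and 19.8 in GrnKO, the lowest sums of the 9 genes. By the authors' scaling they held 3.88 to 22.8 in the H3K27ac libraries, and 34.0 in GrnKO input 1 and 0 in the other 3 inputs. The groups overlapped, with WT replicate 1 alone low (log2 change 0.85, SE 0.67, limma adjusted p = 0.468). Its only tested region, the promoter (chr15:76511569-76512369), held 3.91 and 15.2 in WT and 18.7 and 14.3 in GrnKO, and was tested through GrnKO alone. Without WT replicate 2 the log2 change of the sum was 1.88, and without WT replicate 1 its sign turned (log2 change -0.15). Each of these fits had a single WT library left.

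Plin2 encodes the coat protein found on droplets of most cells. Its 12 regions summed to 344.5 and 226.6 scaled tags in WT and 774.7 and 614.1 in GrnKO. The WT libraries differed from each other, yet both lay well below GrnKO (2.46-fold, log2 change 1.30, SE 0.19, limma adjusted p = 0.000529). Of 8 tested regions 6 were higher, 2 of them tested only through GrnKO. A cluster of 3 overlapping regions 19.5 to 20.4 kb upstream had little H3K27ac in WT. In the outermost (chr4:86690077-86690877), WT held 4.30 and 8.38 scaled tags and GrnKO 57.4 and 55.8 a log2 difference of 3.03. In the innermost (chr4:86689110-86689910), WT held 14.5 and 2.36 and GrnKO 57.1 and 56.3, a log2 difference of 3.00 that was 4.13 without WT replicate 1 and 1.92 without WT replicate 2. Both passed the filter on low values through GrnKO alone, so their p-values are not given. The region between them (chr4:86689426-86690226), tested through both genotypes, held 14.9 and 18.3 in WT and 75.5 and 78.7 in GrnKO, with no overlap (log2 change 2.16, SE 0.34, adjusted p = 0.000437). A region 2.4 kb upstream (chr4:86672077-86672877) held 13.7 and 14.7 in WT and 108.3 and 61.1 in GrnKO (log2 change 2.44, adjusted p = 0.000310), and the one 2.0 kb upstream rose by 1.57. Without GrnKO replicate 1 that value was 0.97 and did not pass (adjusted p = 0.628), and without GrnKO replicate 2 it was 2.19. Both GrnKO libraries were above both WT libraries at both regions. The promoter region (chr4:86669645-86670445) was already marked in WT, at 88.8 and 76.7, and held 151 and 124.3 in GrnKO (log2 change 0.72, SE 0.22, adjusted p = 0.0417). That promoter call was lost without the filter on low values and with either GrnKO library left out (adjusted p up to 0.552). The next region, 0.6 kb into the gene (chr4:86669050-86669850), had the most H3K27ac, with 134.1 and 59.7 in WT and 160.4 and 134.5 in GrnKO, and did not pass (log2 change 0.71, adjusted p = 0.129). It passed under the authors' scaling (0.93, adjusted p = 0.0472) and, at the same log2 change of 0.71, with the replicate number as a block (adjusted p = 0.0124). Without WT replicate 1, which leaves a single WT library, its log2 change was 1.29.

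Pnpla2 encodes adipose triglyceride lipase, which takes the first fatty acid from droplet triglyceride. Its 5 regions summed to 392.2 and 413.5 scaled tags in WT and 372.2 and 434.6 in GrnKO. The genotypes overlapped, and the log2 change was -0.0019 (SE 0.15, limma adjusted p = 0.995). None of the 5 regions passed by limma, edgeR or DESeq2, and 0 had an unadjusted p under 0.05. The region with the most H3K27ac (chr7:141455487-141456287) held 165 and 187.3 in WT and 138 and 164.5 in GrnKO, and the promoter region (chr7:141454730-141455530) 54.0 and 56.0 in WT and 66.8 and 63.2 in GrnKO. Their log2 changes of -0.22 and 0.24 had opposite signs. In the region with the smallest p, 1.4 kb upstream (chr7:141453394-141454194), the level was low, at 5.47 and 3.67 in WT and 11.3 and 14.1 in GrnKO. That region was tested through GrnKO alone, so its p-values are not given.

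Mgll encodes monoglyceride lipase, which cleaves the last fatty acid from glycerol and breaks down an endocannabinoid. Its 10 regions summed to 443.5 and 459.4 scaled tags in WT and 839.8 and 807 in GrnKO, with close replicates and no overlap (1.82-fold, log2 change 0.87, SE 0.12, limma adjusted p = 0.000413). A pair of overlapping regions carried most of the rise. The one 46.5 kb upstream (chr6:88677532-88678332) held 98.5 and 100.05 in WT and 310.9 and 266.9 in GrnKO (log2 change 1.53, SE 0.18, adjusted p = 3.57e-05), and the one 46.9 kb upstream (chr6:88677151-88677951) rose by 1.30. Over non-overlapping regions only, the log2 change of the gene was 0.45 (adjusted p = 0.0276). That sum left out, whole, the region 46.5 kb upstream and the higher region chr6:88724685-88725485. Nearer the gene, the region 15.1 kb upstream (chr6:88708874-88709674) went the other way, with 101.7 and 105 in WT and 58.5 and 61.6 in GrnKO. Its replicates were close, but its log2 change of -0.77 (adjusted p = 0.0464) passed in only 3 of 10 alternatives. At the start site, the region that covers the promoter printed above (chr6:88724105-88724905) held 45.8 and 48.2 in WT and 62.5 and 75.2 in GrnKO and did not pass (adjusted p = 0.247). The region overlapping its end (chr6:88724685-88725485) was higher (log2 change 1.36, adjusted p = 0.00359), though not without GrnKO replicate 2 (adjusted p = 0.0722). A further 21 regions inside the Mgll gene body are assigned to Abtb1 and were not summed with Mgll. Of these, limma called 1, which was lower.

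Levels per region, which all have the same length, put the genes in a different order in the genotypes. In WT, Soat1 was highest at 94.5 ± 6.23 scaled tags per region (SD, n = 2), followed by Pnpla2 at 80.6 ± 3.01 and Lipa at 53.8 ± 3.42. Mgll (45.1 ± 1.12) and Fabp5 (41.3 ± 11.6) overlapped, as did Lpl (25.3 ± 4.77) and Plin2 (23.8 ± 6.95), and Cd36 (6.29 ± 0.323) and Dgat1 (4.45 ± 4.08) were last. In GrnKO, Soat1 stayed first at 180.7 ± 12.3 and Lipa came next at 124.2 ± 5.02. Fabp5 stood at 105 ± 14.2, and Mgll (82.3 ± 2.32) and Pnpla2 (80.7 ± 8.83) did not differ beyond their spread. Plin2 at 57.9 ± 9.46 was then above Lpl at 15.0 ± 1.53.

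Among 80 other genes of lipid handling, listed by role, 76 had regions and 67 could be tested. limma called 12 higher and 0 lower in the sum over their regions, where 8.59% of all genes were higher and 5.88% lower. At an unadjusted p under 0.05, 14 were higher and 8 lower, and the share of all genes at that threshold was not taken. edgeR called 11 higher and 0 lower, and DESeq2 called 13 higher and 1 lower, Acsl1. Over all 15380 genes, edgeR called 2143 and DESeq2 2444 in either direction. The median log2 change over the 67 was 0.030, near the -0.046 of all genes. Without GrnKO replicate 1, 4 remained higher, Apoc2, Fabp7, Nceh1 and Plin3, and without GrnKO replicate 2 there were 6, the same 4 with Apoc1 and Slc27a1. Without WT replicate 1, 2 genes were called lower, and without WT replicate 2, 4 were.

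Around lipoprotein lipase, 2 of 6 tested genes passed. Apoc2, its activating apolipoprotein, held 170.9 and 150.3 scaled tags in WT and 378.4 and 342.1 in GrnKO (log2 change 1.16, SE 0.17, limma adjusted p = 0.000577). Apoc1, an apolipoprotein that restrains it, held 492.7 and 281.3 in WT and 634.7 and 574.7 in GrnKO (log2 change 0.70, adjusted p = 0.0384). Both were higher in both GrnKO libraries while Lpl was lower, and the call of Apoc1 was lost without WT replicate 2 (adjusted p = 0.105), without GrnKO replicate 1 (0.0660) and by edgeR (0.0631), which called 1 of the 6 genes. Among uptake receptors and transporters 2 of 9 passed: Lrp1, a large lipoprotein receptor, at 6109 and 6472 scaled tags in WT and 7416 and 7938 in GrnKO (log2 change 0.29, adjusted p = 0.0120), and Slc27a1, a fatty acid transporter, at 38.3 and 92.7 in WT and 168.3 and 126.4 in GrnKO (1.27, adjusted p = 0.0261). The Slc27a1 value was 0.65 without WT replicate 1 and 1.92 without WT replicate 2, and its call was lost without GrnKO replicate 1 (adjusted p = 0.0915) and over non-overlapping regions (adjusted p = 0.0630). The Lrp1 call was lost under the authors' scaling (adjusted p = 0.307) and with either GrnKO library left out (adjusted p up to 0.220).

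Other carriers and lipases included larger changes. Fabp3, a relative of Fabp5, held 8.99 and 11.5 scaled tags in WT and 48.1 and 52.8 in GrnKO (log2 change 2.20, limma adjusted p = 0.00455). Its call was lost without GrnKO replicate 1 (adjusted p = 0.0615) and without GrnKO replicate 2 (adjusted p = 0.0862). Fabp7, another relative, held 441.9 and 469.8 in WT and 809.5 and 756.9 in GrnKO (log2 change 0.78, adjusted p = 0.00100). These were 2 of 10 tested genes of fatty acid binding and activation. Among lipases and their cofactors 4 of 13 passed. Nceh1, a hydrolase of cholesteryl esters, held 757.5 and 647.4 in WT and 1853 and 1703 in GrnKO (2.53-fold, log2 change 1.34, SE 0.11, adjusted p = 1.0e-05). This stands beside 1.21 for Lipa and 1.30 for Plin2. Ddhd2, a triglyceride lipase of brain, had a log2 change of 0.74 (adjusted p = 0.0294), and did not pass over regions beyond 1 kb from the start site (0.93, adjusted p = 0.0512) or with either GrnKO library left out. G0s2 (1.65, adjusted p = 0.0373) and Hilpda (1.39, adjusted p = 0.0415), both inhibitors of the lipase of Pnpla2, are named after their values were seen, and both had low sums, at 8.64 to 45.8 scaled tags.

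Droplet coats, esterification and oxidation differed in how many genes could be read. Of 14 listed coat and biogenesis genes only 6 were tested, and 1 passed: Plin3, a coat protein related to Plin2, at 93.9 and 56.3 scaled tags in WT and 241.8 and 164.7 in GrnKO (log2 change 1.44, limma adjusted p = 0.00344). Of 12 tested esterification genes 1 passed, Soat2, the relative of Soat1, with a log2 change of 0.52 (adjusted p = 0.0266). Over regions beyond 1 kb from the start site, Soat2 did not pass (0.32, adjusted p = 0.838), nor did it with either GrnKO library left out. Of 11 genes of mitochondrial fatty acid oxidation limma called 0, with a median log2 change of -0.15. At an unadjusted p under 0.05, again with no share of all genes beside it, there were 0 higher and 1 lower. edgeR and DESeq2 called 0 of the 11.

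**Figure D4:**
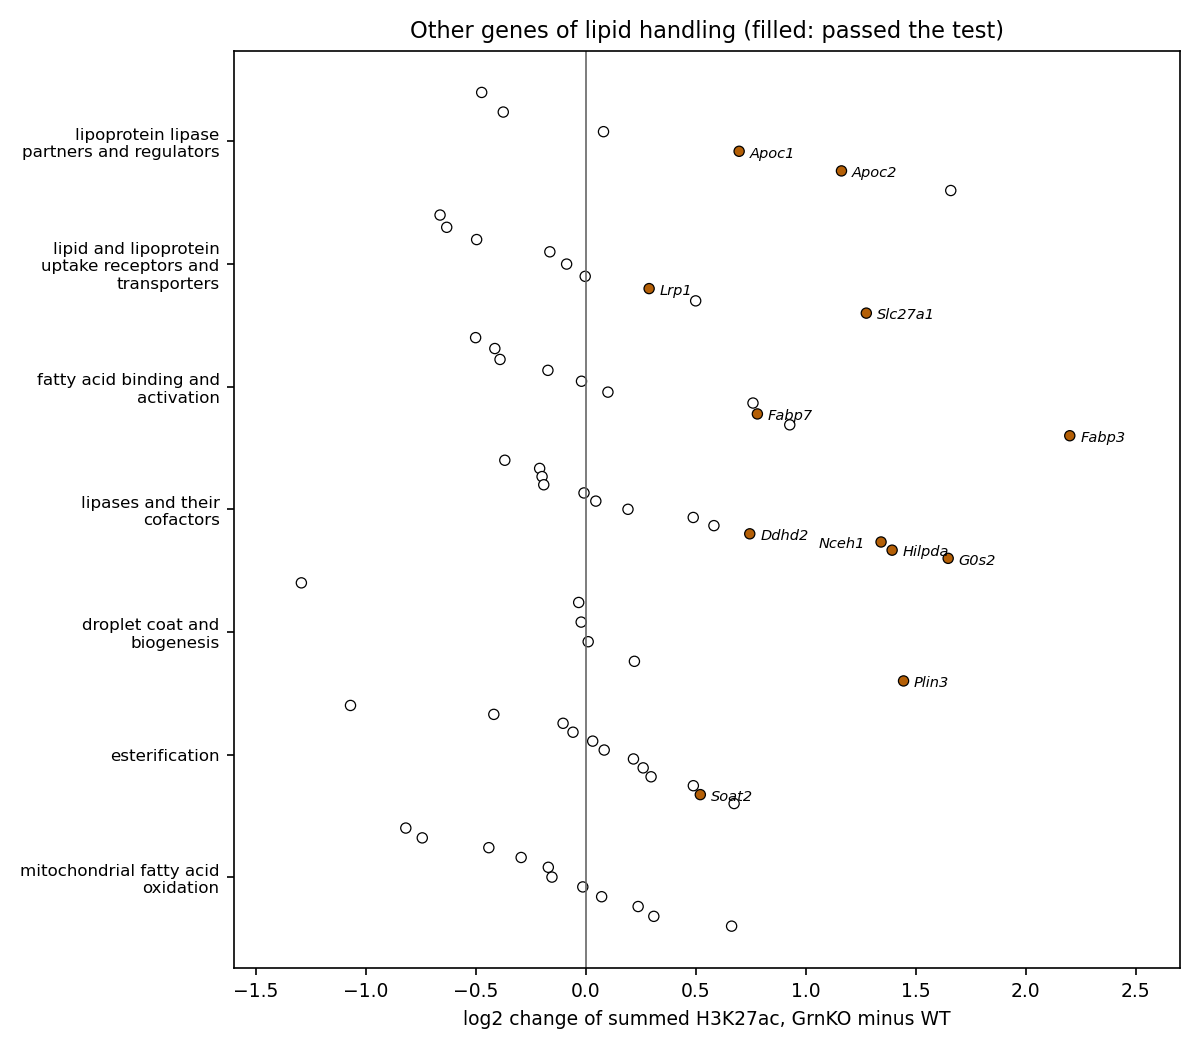
Change of summed H3K27ac (log2, GrnKO minus WT) for the 67 tested genes in 7 lists of lipid handling, with 1 point per gene. Filled and named points are the 12 genes that passed, all of them to the right of 0, and the list of mitochondrial oxidation has none.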

How the data were processed

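H3K27ac ChIP-seq and input were compared in 2 WT and 2 GrnKO replicates, each a pool of 2 mice, so p-values measure the spread between pools. Per the file headers, the authors deposited a signal for each region, tags scaled to 10000000 per library, over a merged list of ATAC-seq peaks with gene names. The submitters' processing notes name mm10, Bowtie2, HOMER and DESeq2 with no role, and the handling of duplicates is not given in the sources used here. Multiplying by the library totals returned whole read ends for 100% of values (tolerance 0.0051 scaled tags, 2 ends per tag).

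Regions and gene sums were kept by filterByExpr on recovered tags (minimum 10) and fitted with limma 3.58.1 with trend on log2(value + 1) after TMM (edgeR 4.0.16, R 4.3.3), genotype only, with Benjamini-Hochberg adjustment over all tested features. Log2 changes on this scale understate low regions. Alternatives were the authors' scaling, a pseudocount of 5, no filter, a replicate block, an adjusted p of 0.1, and leaving out each library. Leaving out a library leaves a single one in its genotype, so the spread then comes from the other genotype alone. edgeR and DESeq2 1.42.0 were run on recovered read ends, at 2 per tag, DESeq2 with its own scaling of the libraries. Gene sums were also taken over non-overlapping, near or distant regions. For the non-overlapping sums, a region that overlapped the last one kept along the chromosome was dropped whole. In 2 against 2 libraries no exact permutation test can pass 0.05. Floors of 3 tags cover counting error only. Simulated read ends were used to test the fits, with true log2 changes of 1 and 2 given to few features. In a run of 76413 regions, limma called 22.6% of 93 and 62.5% of 96 changed regions, and 6.90% of its calls were false. In a run of 14970 gene sums, it called 40.8% of 98 and 85.6% of 97, and 2.38% of its calls were false. In the data 9.7% of tested regions were called, so the rates there can differ.

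Members, lists, marker sets and motifs were chosen with earlier results of these data known. Named regions are each gene's nearest to the start site, highest, and smallest p, and any that passed. Named list genes are, per list and direction, up to 2 with the smallest p among those that passed limma. Acsl1, G0s2, Hilpda and the Lpl region chr8:68880898-68881698 are named outside these rules, after their values were seen. Input libraries (4078179 to 14415969 tags) entered no test.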

Additional observations from a re-analysis of the deposited data

Results flagged for a closer look

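Input libraries, which entered no test between genotypes, held pile-ups of at least 30 tags in 8 of the members' regions. Values are scaled tags by the authors' scaling. At Fabp5 the region 11.2 kb downstream of the start site (chr3:10023349-10024149), which had the smallest p of all members' regions, held 142.2 scaled tags (58 tags) in WT input 1. At Lipa, WT input 1 held 282 scaled tags (115 tags) in each of a pair of overlapping regions (chr19:34506559-34507359 and chr19:34506851-34507651), and neither passed the H3K27ac test. WT input 2 held 36.9 scaled tags (34.5 tags) at Mgll (chr6:88770122-88770922). GrnKO input 1 held 28.1 (40.5 tags) at Plin2 (chr4:86668402-86669202), and 24.3 (35 tags) and 26.4 (38 tags) at Cd36 (chr5:17821147-17821947 and chr5:17841910-17842710). GrnKO input 2 held 65.3 (32 tags) at Lpl (chr8:68952281-68953081). All 8 lie above the level of 3 tags in their library, which is 2.08 to 7.36 scaled tags. Their part in the H3K27ac values was not tested.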

How the results depend on the processing

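The sums of Fabp5, Plin2, Lipa, Soat1 and Mgll stayed higher in all 13 alternatives, and the log2 ratio of Lpl to the other 8 genes changed by -1.63 to -1.85. Of 812 alternative values, 51 lost a call, 5 gained one, 26 moved and 13 reversed. The other 717 kept direction and call, stayed within 1.5 times the main count, or, for the untested Lpl ratio, moved by less than the spread between replicates. Where a value changed, the cause was not tested.

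Of the members' regions, 1 instead of 2 was lower under the authors' scaling, without the filter, and by edgeR and by DESeq2. The authors' scaling also left 0 member genes lower, with Lpl at -0.51, and turned Pnpla2 to 0.22, its highest region to 0.0039 and the highest Cd36 region to 0.069. It moved the median of all regions to 0.22. edgeR and DESeq2 put Pnpla2 at 0.0020 and 0.034, and DESeq2 called 1 listed lipid gene lower. Over non-overlapping regions, which left out the highest Pnpla2 region, Pnpla2 stood at 0.36 and 3 listed genes were lower. Over regions beyond 1 kb of a start site, 0 member genes were lower, Lpl stood at -0.57, Dgat1 at -0.10 and Pnpla2 at 0.49, and of the listed genes 6 were higher and 1 was lower.

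The replicate numbers come from the labels, and samples that share one are different mice (correlation of deviations 0.034). A fit with the replicate block, which is no evidence of pairing, called 34 member regions higher and 2 lower, 5 member genes higher and 1 lower, and 12 listed genes higher and 5 lower, with Lpl at -0.74 and Pnpla2 at -0.0019. Leaving out 1 library at a time gave 22 to 36 member regions higher and 0 to 4 lower, 5 to 6 member genes higher and 0 to 1 lower, and 4 to 15 listed genes higher and 0 to 4 lower. Calls over the table then ranged from 2171 to 13647 regions and from 1023 to 3535 genes, against 7842 and 2225 with all libraries. Lpl ranged from -0.91 to -0.54, Dgat1 from -0.15 to 1.88, Pnpla2 from -0.10 to 0.13 and the highest Cd36 region from -0.48 to 0.21. Of the members' 103 regions, 71 held enough tags to be tested, among them 1 of 3 at Dgat1 and 6 of 21 at Cd36.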
